A study of Mus musculus with 54 samples.

Results

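The genes described here are 4 keratins of simple epithelia, Krt7, Krt8, Krt18 and Krt19, and 6 transcription factors known from the trophoblast lineage, Gata2, Gata3, Tfap2a, Tfap2c, Elf5 and Ascl2. They were chosen by symbol with earlier results of these data known, as were the gene lists below, so counts beside the share of all genes are descriptions. All 10 were listed in both expression tables, of 38363 entries in the table of retinoic acid (RA) treatment and 39067 in the table of LIF withdrawal and sorted lineages. Values are in FPKM, fragments counted per length of transcript and per library size. The study deleted the long non-coding RNA gene Haunt, a neighbour of the HOXA cluster, in mouse embryonic stem (ES) cells.

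Cells of the RA table were of the ES line 46C (strain 129/Ola), which carries GFP at the Sox1 locus. They spent 1 day in serum-free N2B27 medium with LIF and 2 inhibitors (2i), were passaged into N2B27 without these, and then received 2 µM RA for 2 or 4 days. Wild-type (WT) cells gave libraries WT-1 and WT-2 on each day, and cells with a 58 kb deletion at Haunt (58 kb KO) gave KO-i and KO-j. The labels do not say whether these names stand for separate clones or cultures, so p-values measure the spread between the libraries, which may be technical. The other table holds wild-type cells in serum medium, as the authors' mean of 3 libraries with LIF (day 0, from the lines CJ7 and JF4), of 2 libraries after 2 days without LIF (J1 and CJ7) and of 3 after 6 days (JF4, J1 and CJ7). Day 4 without LIF is 1 library of CJ7. It also holds 1 library each of mesendoderm (ME), neural progenitors (NPC) and neural stem cells (NSC). ME was sorted for a GFP reporter of T after LIF withdrawal, and NPC for Sox1-GFP from 46C. NSC were grown on from such Sox1-GFP cells in EGF and FGF-2 to passage 15. Day 6 is listed for ME and NPC, and the line of ME is not stated here. The tables were normalised separately, so levels are compared within each table, and differences among the LIF and lineage columns carry no test.

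Keratins form the intermediate filaments of epithelial cells. A filament is built from pairs of a type II keratin (Krt7, Krt8) and a type I keratin (Krt18, Krt19), and Krt8 with Krt18 is the first pair made in the mouse embryo, in the trophectoderm, and later marks simple epithelia and endoderm. In trophoblast, Gata3, Tfap2c and Elf5 act with Cdx2 and Eomes to set up and maintain stem cells, Gata2 and Gata3 act on placental hormone genes, and Ascl2 is needed for the spongiotrophoblast. Most of these factors also act elsewhere: Gata2 in blood, Gata3 in T cells and surface ectoderm, Tfap2a in neural crest and ectoderm, and Tfap2c in germ cells and ES cells.

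The deletion was visible in the libraries: Haunt read 128 and 142 FPKM in WT-1 and WT-2 at day 2, against 1.13 for KO-i and 0 for KO-j, and 31.8 and 40.6 against 3.08 and 0.447 at day 4. Depth, estimated from the steps between low values, was 9.016 to 16.38 M reads for the RA libraries and 27.69 to 40.63 M for single libraries of the LIF and lineage table. KO-i lay away from the rest on the second principal component of all genes, on both days, so results that rest on it are also given without it. Genes on the chromosomes of the members (2, 6, 7, 11, 13 and 15) were shifted in KO-i and KO-j by medians of -0.089 to 0.199 log2 units against WT, the highest on chromosome 6 in KO-j at day 2.

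The keratins rose in RA-treated cells between day 2 and day 4. In WT cells all 4 passed the test, by 4.51-fold for Krt7 to 32.5-fold for Krt19 on the log2(FPKM + 1) scale, and so did Gata3. Tfap2c fell, and Gata2, Tfap2a and Ascl2 did not pass. Among the 9 members with enough signal to be tested, 6 were called in limma (adjusted p under 0.05), where 25.3% of all 15705 genes were. Of these 5 were higher and 1 lower, beside 14.4% and 10.9% of all genes. Their median log2 change was +2.17, beside +0.04 over all genes. Elf5 reached 1 FPKM in no library and was not tested.

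Krt8 (NM_031170, mm9 chr15:101827142-101834773), the type II partner of Krt18, read 10.9 and 10.4 FPKM in WT-1 and WT-2 at day 2 and 96.6 and 154 at day 4. It rose by 3.41 log2 units (SE 0.32, limma adjusted p = 0.000846). Krt18 (NM_010664, chr15:101858647-101862457), which lies 23873 bases beyond Krt8 on the opposite strand, read 11.2 and 9.55 and then 94.0 and 155 FPKM. Its rise of 3.43 log2 units (SE 0.27, adjusted p = 0.000472) matched that of Krt8 within the error, and in both genes every day 4 library was above every day 2 library.

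Krt19 (NM_008471, chr11:100002126-100007233), a small type I keratin of ducts and glands, started lower and rose further. It read 2.12 and 2.01 FPKM at day 2 and 85.3 and 114 at day 4, an increase of 5.02 log2 units (SE 0.41, adjusted p = 0.000553). Its level was 0.190 and 0.211 of that of Krt18 in the same WT library at day 2, and 0.907 and 0.739 of it at day 4. Krt7 (NM_033073, chr15:101242834-101258237), a type II keratin of ducts, bladder and trophoblast, remained the least abundant of the keratins. Its 0.729 and 0.789 FPKM at day 2 became 7.05 and 6.81 at day 4, a rise of 2.17 log2 units (SE 0.17, adjusted p = 0.000477). The sum over the keratins went from 24.9 and 22.7 to 283 and 430 FPKM. In bulk RNA, more cells that express a gene and more RNA per cell cannot be told apart.

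Of the transcription factors, Gata3 moved with the keratins. Gata3 (NM_008091, chr2:9778705-9800227) read 0.693 and 1.06 FPKM in WT-1 and WT-2 at day 2 and 14.9 and 24.0 at day 4, and rose by 3.42 log2 units (SE 0.32, adjusted p = 0.000864). The entry Gm13256 overlaps Gata3 by 1345 bases and read at most 1.22 FPKM in these unstranded libraries, so reads of that stretch could belong to either. The same holds for Tfap2a and the entry AK017409, which overlap by 2636 bases and of which the latter read at most 0.506 FPKM. Tfap2c (NM_001159696, chr2:172376491-172384121) went the other way, from 10.3 and 5.37 to 0.954 and 0.510 FPKM, a fall of 2.30 log2 units (SE 0.34, adjusted p = 0.00401). Its WT libraries at day 2 differed by more than those of the keratins, and still did not overlap with day 4.

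The remaining factors were near the detection floor of the tests. Gata2 (NM_008090, chr6:88148658-88157026) read 1.04 and 0.825 FPKM in the WT libraries of day 2 and 0.652 and 1.15 in those of day 4 (-0.03, 95% interval -0.60 to 0.53, adjusted p = 0.934), with the days overlapping. Tfap2a (NM_001122948, chr13:40811044-40825812) read 1.02 and 1.04 and then 1.57 and 1.58 FPKM (+0.34, interval -0.10 to 0.79, adjusted p = 0.229). Ascl2 (NM_008554, chr7:150152727-150155169) read 2.09 and 0.894 and then 0.635 and 0.401 FPKM (-0.68, interval -1.43 to 0.08, adjusted p = 0.168). The libraries of the days did not overlap for Tfap2a, higher at day 4, or Ascl2, lower, but neither change passed the test. Counting by overlap alone, 6 of 9 members were higher at day 4 in both WT libraries and 2 lower, beside 37.6% and 31.2% of all genes. Elf5 (NM_001145813, chr2:103252255-103291145), a factor of trophoblast stem cells and mammary epithelium, was listed at 0 in WT-1 on both days and at 0.0436 and 0.0652 FPKM in WT-2.

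**Figure D1:**
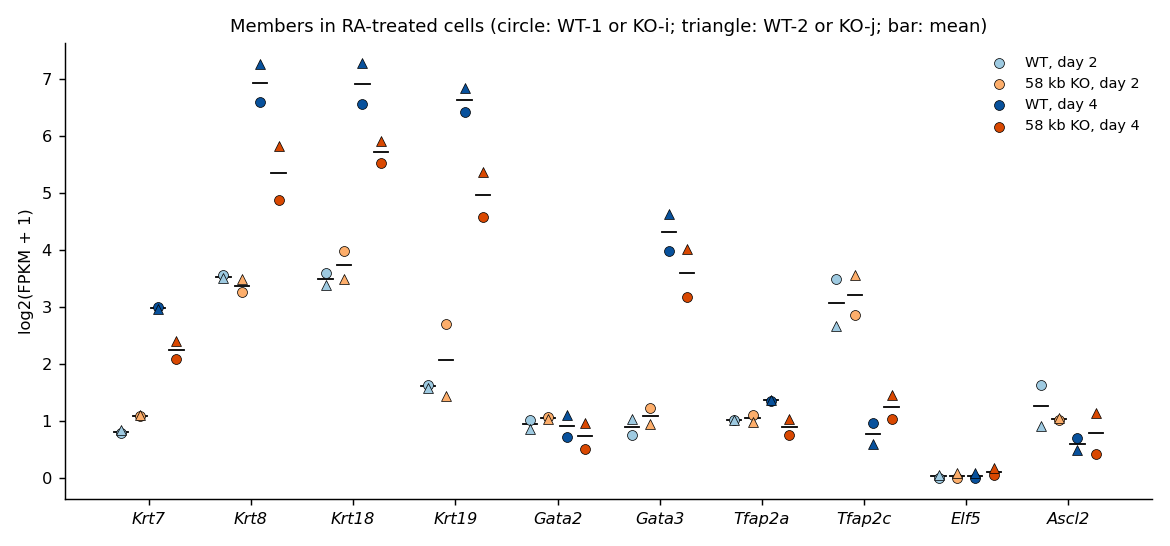
Level of each of the 10 genes in the 8 RA libraries, as log2(FPKM + 1), with the mean of each pair of libraries as a bar. The 4 keratins and Gata3 are higher at day 4 in both genotypes, Tfap2c is lower, and Elf5 stays near 0, at most 0.128 FPKM.

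The promoters of the genes that rose were read to see whether they share known short motifs. RefSeq (build GRCm38.p6) gave upstream windows for 8 of the 10 members. Of the 5 that rose, those with an entry, Krt7, Krt8, Krt18 and Gata3, are shown. Each window is the 250 bases before the annotated start, 5′ to 3′ on the gene's strand. Krt19 and Tfap2c have no entry. Searched on both strands were the AP-2 motif GCCNNNGGC, which Tfap2 proteins bind, the GATA motif AGATAA, the AP-1 motif TGANTCA, the ETS motif CCGGAA, the Sp/KLF motif GGGCGG and the TATA box TATAAA, and capitals mark their matches.
Krt8, chr15:102004343-102004592, minus strand: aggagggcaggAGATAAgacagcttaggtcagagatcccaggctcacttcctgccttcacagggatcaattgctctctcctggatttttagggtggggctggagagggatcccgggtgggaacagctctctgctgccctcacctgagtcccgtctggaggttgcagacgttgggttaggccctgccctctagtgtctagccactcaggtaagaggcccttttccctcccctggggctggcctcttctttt
Krt18, chr15:102027966-102028215, plus strand: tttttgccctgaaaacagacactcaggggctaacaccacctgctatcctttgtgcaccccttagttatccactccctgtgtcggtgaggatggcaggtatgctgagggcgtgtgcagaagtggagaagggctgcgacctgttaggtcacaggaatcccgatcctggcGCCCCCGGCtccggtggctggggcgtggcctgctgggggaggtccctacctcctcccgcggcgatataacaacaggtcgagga
Krt7, chr15:101412153-101412402, plus strand: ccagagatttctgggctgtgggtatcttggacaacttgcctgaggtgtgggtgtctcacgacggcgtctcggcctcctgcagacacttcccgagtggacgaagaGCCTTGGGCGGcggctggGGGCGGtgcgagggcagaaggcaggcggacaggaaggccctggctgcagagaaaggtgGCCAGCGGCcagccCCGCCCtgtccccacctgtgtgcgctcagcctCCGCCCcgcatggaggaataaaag
Gata3, chr2:9878601-9878850, minus strand: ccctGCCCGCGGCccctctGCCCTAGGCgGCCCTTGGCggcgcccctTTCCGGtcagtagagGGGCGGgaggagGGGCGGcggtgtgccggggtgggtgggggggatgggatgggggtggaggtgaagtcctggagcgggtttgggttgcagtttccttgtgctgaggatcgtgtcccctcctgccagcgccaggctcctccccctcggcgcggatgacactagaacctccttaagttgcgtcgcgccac

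The 4 windows had no motif of the 6 in common. An AP-2 match was found in those of Krt18 (1), Krt7 (2) and Gata3 (3), and in 13.7% of all 32851 windows. Of the members that did not rise, Gata2 also held an AP-2 match (1), and Gata2, Ascl2 and Tfap2a held Sp/KLF matches. The window of Krt8 held only a GATA match, 239 to 234 bases before the start, which 9.99% of all windows hold. Sp/KLF matches stood in those of Krt7 (4, 1 of them overlapping an AP-2 match) and Gata3 (2), against 32.7% of all windows, and an ETS match in that of Gata3, against 12% of all. No AP-1 or TATA box letters were found in these stretches, against 6.75% and 12.4% of all windows. By composition the windows ran from 58% GC in Krt8 and 60.4% in Krt18 to 66% in Krt7 and 70% in Gata3, beside a median of 52.4% over all. A match is a description of the letters, and binding was not measured.

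In cells with the deletion the same 5 members rose and Tfap2c fell. In 58 kb KO, 6 of 9 members were called between day 2 and day 4, where 17.8% of all genes were, 5 of them higher and 1 lower, beside 10% and 7.81% of all genes. Krt8 went from 8.61 (KO-i) and 10.3 FPKM (KO-j) to 28.5 and 55.8 (+1.98, SE 0.32, adjusted p = 0.00929). Krt18 went from 14.9 and 10.3 to 45.3 and 59.6 FPKM (+1.98, SE 0.27, adjusted p = 0.00598). Krt19 went from 5.52 and 1.73 to 23.0 and 40.5 FPKM (+2.90, SE 0.41, adjusted p = 0.00675). KO-i was thus the higher library for Krt18 and Krt19 at day 2 and the lower for every keratin at day 4.

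Krt7 went from 1.13 (KO-i) and 1.15 FPKM (KO-j) to 3.26 and 4.33, a rise of 1.16 log2 units (SE 0.17, adjusted p = 0.00755). Gata3, at 1.36 and 0.932 and then 8.07 and 15.2 FPKM, rose by 2.51 log2 units (SE 0.32, adjusted p = 0.00518). Tfap2c, at 6.30 and 10.9 and then 1.06 and 1.75 FPKM, fell by 1.97 log2 units (SE 0.34, adjusted p = 0.012). None of these genes overlapped between the days, nor did Gata2, lower at 0.420 and 0.969 FPKM than at day 2 with 1.09 and 1.04 but not called, while Tfap2a and Ascl2 did. By overlap 5 of 9 members were higher at day 4 and 2 lower, beside 32.8% and 27% of all genes. Fitted without KO-i at both days, where KO-j alone stands for the knockout and is assumed to vary like the other groups, the keratins and Gata3 kept their calls, with Krt8 at +2.33 and Krt19 at +3.93. The call of Tfap2c was lost in that fit (-2.11, adjusted p = 0.0561), without KO-j at day 2 (-1.62, adjusted p = 0.0585) and without KO-i at day 4 (-1.76, adjusted p = 0.0581). With only the 2 knockout groups in the fit, Krt18 and Gata3 kept their calls and Krt7, Krt8, Krt19 and Tfap2c had adjusted p-values of 0.0522 to 0.0607.

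The share of genes called moved with single libraries, and the members' count did so less. All genes called between the days in WT numbered 3973, and 1876, 1742, 1873 and 1474 without WT-1 at day 2, WT-2 at day 2, WT-1 at day 4 and WT-2 at day 4, with 6 members called in each. In 58 kb KO they numbered 2802, and 1667, 990 and 1124 without KO-i at day 2, KO-j at day 2 and KO-i at day 4, with 6, 5 and 5 members called, and 875 without KO-i at both days. Of the genes called, 56.9% in WT and 56.2% in 58 kb KO were higher at day 4, and 43.1% in each when every library was centred on its median, with the members' directions unchanged.

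Neither day showed a difference between the genotypes that passed the test for any member. At day 2, 0 of 9 members were called in limma and 0 had an unadjusted p under 0.05, where 0.0255% of all genes were called (4 genes, and 803 at an unadjusted p under 0.05), 0.00637% higher and 0.0191% lower. The members' median was +0.13 log2 units, beside +0.04 over all genes, and their adjusted p-values were 0.88 to 0.981. Both knockout libraries were above both WT libraries for Krt7 and Gata2 (2 of 9, beside 23.1% of all genes) and below for Krt8 (1 of 9, beside 13.9%). With Krt7 the values were 1.13 and 1.15 against 0.729 and 0.789 FPKM (+0.28, 95% interval -0.12 to 0.68).

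At day 4 the keratins had lower values in 58 kb KO, and again no member was called. In limma 0 of 9 members and 0% of all genes passed, and 5 members had an unadjusted p under 0.05, all of them lower, beside 1087 genes lower and 1176 higher of the 15705. Krt8 was at 28.5 (KO-i) and 55.8 FPKM (KO-j) against 96.6 (WT-1) and 154 (WT-2) (-1.59, 95% interval -2.33 to -0.85, adjusted p = 0.165). Krt18 was at 45.3 and 59.6 against 94.0 and 155 (-1.20, interval -1.82 to -0.58, adjusted p = 0.173). Krt19 was at 23.0 and 40.5 against 85.3 and 114 (-1.66, interval -2.62 to -0.70, adjusted p = 0.192). In each of these genes the higher knockout library was below the lower WT library.

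Krt7 was at 3.26 and 4.33 FPKM against 7.05 and 6.81 (-0.73, interval -1.13 to -0.33, adjusted p = 0.182), and Tfap2a at 0.682 and 1.04 against 1.57 and 1.58 (-0.47, interval -0.92 to -0.03, adjusted p = 0.326). Libraries did not overlap for these 5 members, all lower in the knockout (5 of 9, beside 21.7% of all genes), nor for Tfap2c, higher at 1.06 and 1.75 against 0.954 and 0.510 FPKM (1 of 9, beside 24.9%). Gata3 overlapped, with KO-j at 15.2 FPKM above WT-1 at 14.9 and KO-i at 8.07 (-0.71, interval -1.46 to 0.04, adjusted p = 0.36). Without KO-i the differences were -1.12 for Krt8 and from -1.27 (Krt19) to -0.57 (Krt7) over the keratins, with adjusted p-values of 0.303 to 0.453, and -0.29 for Gata3.

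Whether the rise itself differed between the genotypes was tested as the difference of the day changes. Again 0 of 9 members and 0% of all genes passed in limma, and 4 members, the keratins, had an unadjusted p under 0.05, beside 873 genes. The rise in 58 kb KO minus that in WT was -1.02 log2 units for Krt7 (SE 0.24), -1.43 for Krt8 (SE 0.45), -1.44 for Krt18 (SE 0.38) and -2.12 for Krt19 (SE 0.58), with adjusted p-values of 0.71 to 0.791. Gata3 stood at -0.91 (95% interval -1.97 to 0.15, adjusted p = 0.901). For Krt19 the value was -1.49 without KO-i at day 2, -1.73 without KO-i at day 4 and -1.10 without KO-i at both days.

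**Figure D2:**
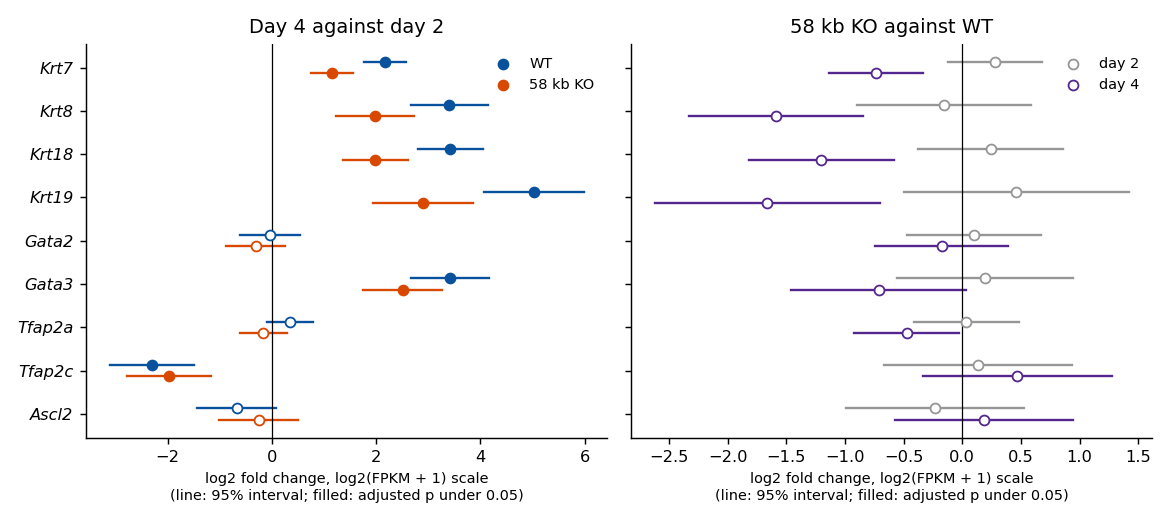
Log2 fold changes of the 9 tested members with 95% intervals, between the days in each genotype (left) and between the genotypes on each day (right), where filled points passed the adjusted threshold. On the left the keratins and Gata3 lie to the right of 0 and Tfap2c to the left in both genotypes, and on the right no point is filled.

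The filament partners Krt8 and Krt18 were present at nearly equal levels in WT cells. Their ratio was 0.975 and 1.09 in WT-1 and WT-2 at day 2 and 1.03 and 0.998 at day 4, while the genes rose by 10.6-fold and 10.7-fold. KO-j gave 0.998 and 0.936. KO-i gave 0.578 at day 2 and 0.631 at day 4, below every other RA library on both days, with less Krt8 than Krt18. As ratios of FPKM per library these carry no test, and the knockout group is split between its libraries.

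In serum medium without LIF, Krt8 and Krt18 came to be among the most abundant transcripts. Krt8 read 128 FPKM in the day 0 mean, 359 at day 2, 459 in the day 4 library and 1619 in the day 6 mean, which was the 28th highest entry of that column. Krt18 followed with 113, 276, 335 and 1271 FPKM, and Krt19 with 31.8, 80.0, 209 and 235. Against day 0 the day 6 mean was thus 12.6-fold as high for Krt8, 11.2-fold for Krt18 and 7.37-fold for Krt19. Krt8 and Krt18 differed most between day 4 and day 6, by 3.52-fold and 3.79-fold, while Krt19 was nearly as high at day 4 as at day 6.

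Krt7 read 7.18, 9.59, 3.74 and 34.0 FPKM over the same columns, with its lowest value in the single CJ7 library of day 4 and its highest at day 6. Counted over the members present in a pair of columns, with a difference of at least 1 log2 unit, 4 of 9 were higher at day 2 than at day 0 (beside 5.41% of the genes compared) and 1 lower (5.99%), and 6 of 9 were higher at day 6 than at day 0 (13.1%) and 1 lower (8.02%). The single day 4 library was higher than day 0 in 3 of 7 (7.66%), Krt8, Krt18 and Krt19, and lower in 2 (10.1%), Tfap2c and Ascl2. Against day 2 it was higher in 1 of 8 (3.69%), Krt19, and lower in 2 (5.49%), Krt7 and Tfap2a. From day 4 to day 6 then 6 of 8 were higher (7.36%) and 0 lower (2.14%). These columns mix cell lines in different proportions, so line and day cannot be told apart, and the averaged columns give no spread.

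Among the factors, Gata3 read 0.291, 1.05, 0.764 and 6.97 FPKM from day 0 to day 6, and Tfap2a 0.241, 2.36, 0.407 and 3.85. Gata2 was at 1.19, 1.35, 0.428 and 2.92 FPKM. All 3 had their highest value of the series without LIF at day 6 and stood lower in the day 4 library than in the day 2 mean. Tfap2c had its highest value with LIF, 39.3 FPKM, and read 4.13, 7.80 and 8.69 afterwards, at least 1 log2 unit below day 0 in all 3 columns. Ascl2 was at 1.73 FPKM with LIF and at 0.180 to 0.761 without it, and Elf5 at 0 to 0.102 throughout.

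The single libraries of the lineages separated into a keratin-high and a keratin-poor side. ME and the neural cells also differ in reporter and culture, so lineage cannot be told apart from these. ME read 427 FPKM of Krt8, 207 of Krt18, 99.4 of Krt19 and 6.22 of Krt7. Unsorted cells of day 4 without LIF read more of Krt8 (459), Krt18 (335) and Krt19 (209), and less of Krt7 (3.74). In NPC the same genes were at 5.15, 5.14, 0.716 and 0.0263 FPKM, and in NSC at 0.761, 0.375, 0.205 and 0.0216. ME was higher than NPC by at least 1 log2 unit in 8 of 9 members (beside 9.76% of genes) and lower in 0 (15.4%). Against day 0, ME was higher in 3 of 9 (10.7%) and lower in 1 (12.4%), and against day 6 higher in 0 (2.8%) and lower in 5 (8.4%). NPC was lower than day 0 in 7 of 9 (13.1%) and higher in 1 (16.4%), NSC lower than day 0 in 6 of 7 (18.2%) and higher in 0 (22.7%), and NSC lower than NPC in 3 of 4 (12.7%) and higher in 0 (13.6%). Krt8 was thus at 0.0402 of its day 0 level in NPC and at 0.00594 of it in NSC.

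Tfap2a was the only member higher in NPC than in ME, at 2.71 against 1.23 FPKM, and read 0.851 in NSC. Both Tfap2a and Gata3 were above their day 0 values, 0.241 and 0.291 FPKM, in NPC and NSC. Its relative Tfap2b, a factor of neural crest and dorsal neural tube, read 15.1 FPKM in NPC and at most 0.0597 in every other column. Gata3 was highest in ME, at 9.17 FPKM, with 1.27 in NPC and 0.381 in NSC, and Tfap2c stood at 16.6, 0.520 and 0.0915. Ascl2 read 1.29 in ME and 0 in NPC and NSC, and Elf5 0 in all 3. The ratio of Krt8 to Krt18 was 1.13 to 1.37 in the LIF columns, 1.00 in NPC and 2.06 in ME, where Krt8 exceeded Krt18, and 2.03 in NSC, where both were under 1 FPKM.

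**Figure D3:**
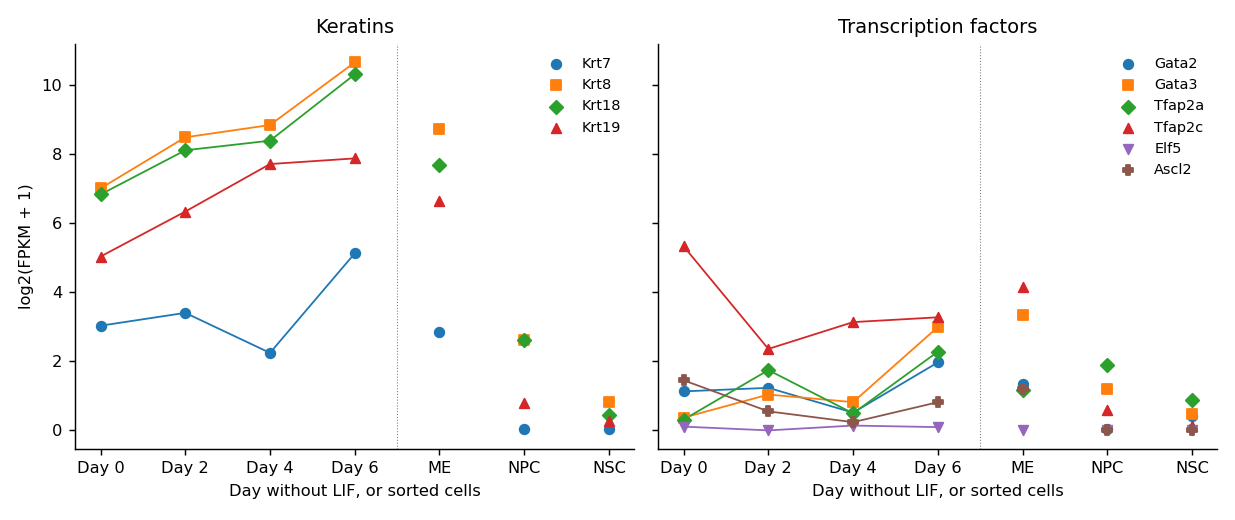
Level of the 4 keratins (left) and the 6 factors (right) as log2(FPKM + 1) in the LIF withdrawal columns, joined by lines, and in single libraries of mesendoderm (ME), neural progenitors (NPC) and neural stem cells (NSC). Krt8 and Krt18 are highest at day 6, 1619 and 1271 FPKM, and all keratins are lowest in NSC, while Tfap2c is highest at day 0.

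**Figure D4:**
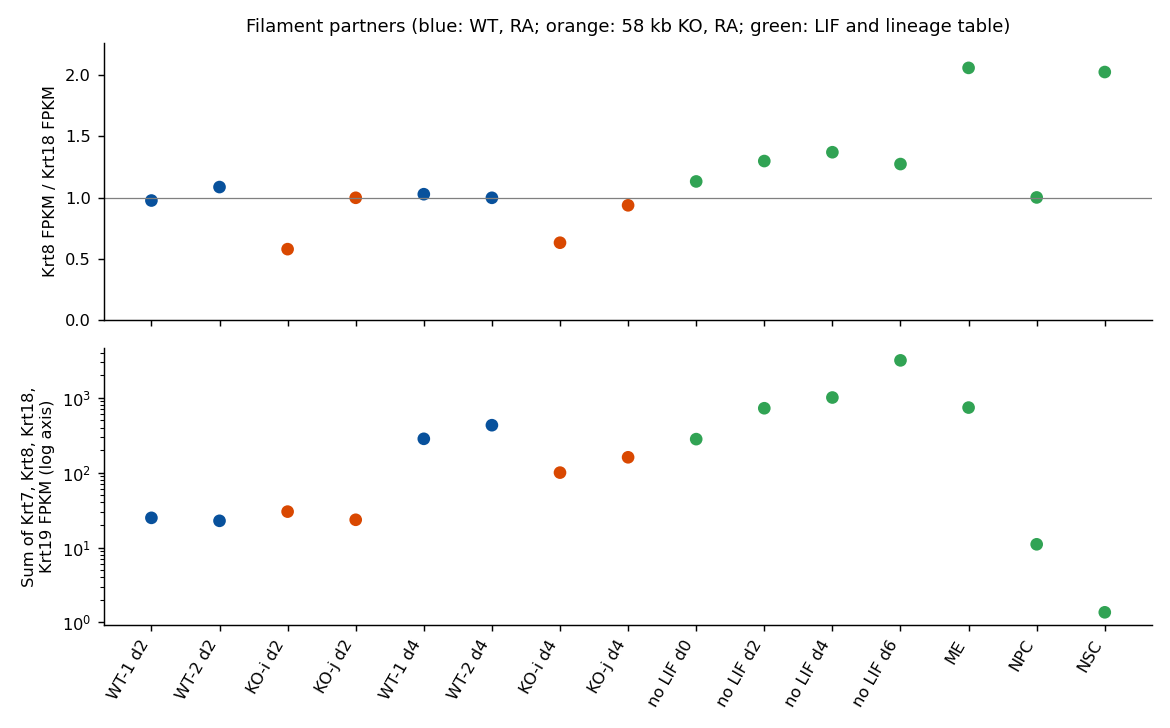
Ratio of Krt8 to Krt18 FPKM (top) and the summed FPKM of the 4 keratins on a log axis (bottom), 1 point per RA library or column of the other table. KO-i lies below the other RA libraries at both days, at 0.578 and 0.631, and the sum ranges from 1.36 FPKM in NSC to 3158 at day 6 without LIF.

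The label of trophoblast factors was checked against other trophoblast genes. Tpbpa of the spongiotrophoblast and Prl3d1 of giant cells, which define differentiated trophoblast, were listed at 0 in all 15 columns. Cdx2, which sets up the trophectoderm, read 0.837 (WT-1) and 0.475 (WT-2) FPKM at day 2 of RA and 1.23 and 2.58 at day 4, and Hand1, a factor of giant cells and also of mesoderm, at most 0.548 in any RA library. Over a list of 20 such genes, 13 were tested and 3 rose and 3 fell in WT between the days, with a median of +0.18 log2 units. Those that rose were Plac1, a placental membrane protein (+2.02, adjusted p = 0.00126), the growth factor receptor gene Fgfr2 (+1.43) and Rhox6 (+0.75). Among those that fell were Eomes, shared with mesendoderm (-1.30), and Wnt7b (-0.88). The list's summed level was 91.3 and 90.2 FPKM for the WT libraries of day 2 and 105 and 121 for those of day 4. Hand1 stood out in the other table, at 268 FPKM in the day 6 mean and 76.7 in ME, where Eomes read 29.7 and 90.8. Cdx2 read 0.316 FPKM at day 0, 9.13 at day 6 and 7.51 in ME. Rhox6 and Rhox9 were lower at day 6, at 4.65 and 4.46 FPKM against 56.2 and 49.5 at day 0. The list summed to 178 FPKM at day 0, 54.5 at day 2, 104 at day 4 and 372 at day 6. Hand1 alone gave 3.84 FPKM of the sum at day 0 and 268 at day 6. At day 0 and day 6, 12 and 16 of 20 genes were at 1 FPKM or more. The factors carry the trophoblast name here for their known role, and the identity of these cells was not tested.

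Markers of extraembryonic endoderm, which also makes Krt8, Krt18 and Krt19, moved with the keratins in RA. Of 20 listed genes 19 were tested and 16 rose and 0 fell in WT, with a median of +2.40 log2 units, and 11 rose and 0 fell in 58 kb KO, with a median of +1.58. The basement membrane collagens Col4a1 (+3.70, adjusted p = 0.000302) and Col4a2 (+3.50, adjusted p = 0.000302), the matrix protein gene Sparc (+3.30) and the endoderm factor Gata4 (+2.30) had the smallest p-values. The list summed to 237 and 283 FPKM in the WT libraries of day 2 and to 2197 and 2159 in those of day 4, and in the knockout to 285 and 209 and then 1173 and 1180. At day 4 none of the 19 passed between the genotypes, 15 were lower at an unadjusted p under 0.05, and the median was -0.86 log2 units, beside -0.71 for the members. No gene of the list was at 0 in any day 4 library. The part of such cells in the keratin values was not tested.

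In the LIF table a few matrix genes gave most of the sum of this list at day 6, where the keratins were highest. It summed to 68.5 FPKM at day 0 and 411 at day 6, of which Sparc, Col4a1 and Col4a2 gave 162, 122 and 91.2. The sum did not follow the keratins over all columns. In NSC, where the keratins were lowest, it was 215 FPKM, with Sparc at 66.2, Col4a1 at 66.0 and Plat at 49.9. That was above day 2 (134), day 4 (165), ME (124) and NPC (137). Other genes of the list were also higher at day 6 than at day 0. Gata4 read 0.265 and then 4.37 FPKM, Gata6 0.0826 and 2.53, Dab2 0.920 and 6.23, and Plat 1.00 and 9.61. Lama1 was lower, at 8.91 and then 3.51. At day 6 Afp and Apoa1, secreted products of visceral endoderm, were at 0.00468 and 0.122 FPKM and Ttr at 0.874. In WT at day 4 of RA the list had 18 of 20 genes at 1 FPKM or more in each library, and at day 6 without LIF, in the separately normalised table, it had 10.

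Epithelial partners of the keratins changed in a more mixed way. Of 20 genes of desmosomes, tight junctions and epithelial identity, 17 were tested and 5 rose and 1 fell in WT, with a median of -0.01 log2 units. Claudins Cldn6 (+1.75, adjusted p = 0.00253) and Cldn7 (+2.39, adjusted p = 0.0034) and the desmosomal cadherins Dsg2 (+0.88) and Dsc2 (+0.91) rose, and Cldn3 fell (-1.24). The fifth that rose was Krt20, a type I keratin of gut and bladder epithelium, from 2.15 and 1.89 to 4.48 and 4.54 FPKM (+0.87, adjusted p = 0.00861). Dsp, the plakin that ties keratin filaments to desmosomes, was already at 104 and 103 FPKM at day 2 and read 115 and 143 at day 4. In 58 kb KO the same 5 rose, Krt20 by 0.75 log2 units (adjusted p = 0.0219), and the gene that fell was the plakophilin gene Pkp3 (-0.61, adjusted p = 0.0433), while Cldn3 did not pass (-0.85, adjusted p = 0.0709).

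Other filament genes were mixed. Of a list of 16 further type I and II keratins none reached the level needed for a test in RA cells. Of 5 tested genes of stratified epithelium and surface ectoderm, Krt15 rose in WT (+1.91, adjusted p = 0.00215), from 0.102 and 0.0553 to 2.49 and 3.68 FPKM, and Grhl3 fell (-2.48). Krt15 also rose in 58 kb KO (+0.92, adjusted p = 0.0392), and between the genotypes at day 4 it stood at -0.99 (adjusted p = 0.189). Among 10 other intermediate filament and linker genes 2 rose and 3 fell in WT. The mesenchymal filament gene Vim (+1.35) and Nes (+1.26) rose, and both rose in 58 kb KO too (+1.41 and +1.41). Evpl (-0.89), Des (-0.79) and Dst (-0.63) fell, and of these only Dst passed in 58 kb KO (-0.52). At day 0 with LIF, Krt42 (47.9 FPKM) and Krt17 (13.7 FPKM) were above Krt7 and read 0.647 and 0.701 at day 6.

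Relatives of the factors were followed as well. Of 17 genes of the Gata, Tfap2, Elf and Ascl families and their cofactors, 10 were tested, 5 rose and 1 fell in WT, with a median of +0.90 log2 units. Gata4 (+2.30), Gata5 (+1.90) and the Gata cofactor Zfpm1 (+1.43) were among those that rose, and the epithelial factor Elf3 fell (-1.01). In 58 kb KO 3 rose and 1 fell. Markers of the other places where the factors act were mixed: of neural crest genes 8 were tested, 3 rose and 2 fell, of blood and endothelium 6, 1 and 1, and of primordial germ cells 7, 0 and 2, the last including Kit (-1.19) and Prdm14 (-1.69). Of 8 pluripotency genes 6 fell, among them Nanog (-3.55) and Pou5f1 (-2.60), and of 7 neural progenitor genes 3 rose and 2 fell. Of 5 tested mesendoderm genes 3 rose, Lhx1 (+1.19), Foxa2 (+2.08) and Sox17 (+0.75), and 1 fell, Eomes (-1.30). Foxa2 and Sox17 are also in the list of extraembryonic endoderm. The mesendoderm genes T, Mixl1 and Mesp1 did not reach the level needed for a test.

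**Figure D5:**
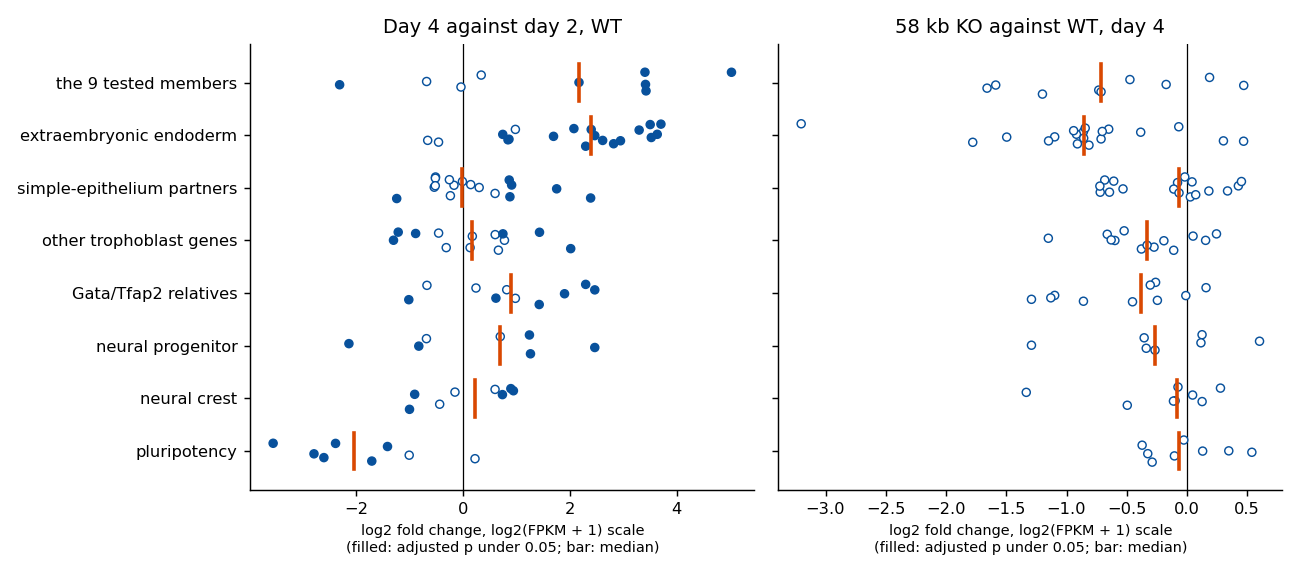
Log2 fold changes of the 9 tested members and of 7 gene lists in WT between the days (left) and between the genotypes at day 4 (right), 1 point per gene, filled where the adjusted p was under 0.05, with the median as a bar. Medians for the members and for extraembryonic endoderm are +2.17 and +2.40 on the left and -0.71 and -0.86 on the right, and no point on the right is filled.

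Genes with a course most like that of Krt8 were named by the root mean square (RMS) difference of their centred log2 values from those of Krt8, among genes with a mean of at least 5 FPKM. Over the 8 RA libraries and 9177 genes these were Ltbp1, a binding protein of latent TGF-beta (RMS difference 0.258 log2 units), Gm15655 (0.270), Krt18 (0.304), Enpp1 (0.329), Adamts1 (0.335), the secreted chaperone gene Clu (0.349), the retinol-oxidising dehydrogenase gene Adh1 (0.365) and Foxd2 (0.374). Gata3 came 12th (0.393) and Krt19, with its larger range, 113th (0.773). Ltbp1 read 3.53 and 4.28 FPKM in the WT libraries of day 2, 38.8 and 53.6 in those of day 4, and 16.7 (KO-i) and 27.8 (KO-j) at day 4.

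Over the 7 columns of the other table and 7608 genes, the nearest were Krt18 (0.299) and Krt19 (0.678), then the desmosomal gene Dsp (0.821), Ahnak (0.842), 2200002D01Rik (0.876), the stratified-epithelium gene Sfn (1.16), Gbp2 (1.20) and the epithelial serine protease gene St14 (1.21). Krt7 came 51st and Tfap2c 195th. Krt18 is the only gene in both sets of 8. The columns of a set share libraries, averages and cell lines, so these are descriptions of likeness in these samples.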

How the data were processed

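The study profiled poly(A) RNA of mouse ES cells. The authors deposited a gene table of FPKM values per library for RA treatment and a table of FPKM values, in part means of 2 or 3 libraries, for LIF withdrawal and sorted lineages. The headers do not name the unit, which was read from the values. Per the labels' protocols the RA libraries were unstranded and the others stranded. Per the submitters' processing notes the tools include TopHat2 2.0.11, Bowtie 1.0.0, MACS 1.4.2 and CASAVA, with the build mm9. Not given in the sources used here are the program behind the FPKM values and how reads shared with pseudogenes (such as Krt8-ps) were assigned. Tfap2a, Tfap2c and Elf5 carry more digits than a single estimate in 6, 5 and 4 RA libraries, as sums over several estimates do. The 2 tables cover 20 of 54 samples, and the other samples are not analysed here.

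The members and gene lists were chosen with earlier results of these data known. In the RA table log2(FPKM + 1) was fitted with limma 3.58.1 (R 4.3.3, intensity trend) over 15705 genes that reached 1 FPKM in 2 or more of the 8 libraries, as 4 groups of 2, giving 4 residual and 3.5 prior degrees of freedom. P-values were adjusted over all genes by Benjamini-Hochberg, with a threshold of 0.05, and fold changes on this scale understate those of low genes. The fit was tested on simulated data. Steps between low FPKM values gave the depth. All 10 members are named. From a list the text names members past the threshold, at most 4 per direction by smallest p, some of which are not reported here. In the other table it names the 3 highest in a column, and the 8 genes nearest to Krt8 by RMS difference. List genes named besides these (Cdx2, Hand1, Dsp, Afp, Apoa1, Ttr, Gata6, Dab2, Plat, Lama1, T, Mixl1, Mesp1, Tfap2b, Krt42, Krt17, Krt20) were chosen after their values were seen. Alternatives were the pseudocount, the filter, the scaling, no trend, only the 2 groups compared, the library name as a block, each library left out and, chosen after seeing the data, KO-i left out.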

Additional observations from a re-analysis of the deposited data

How the results depend on the processing

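Of 759 alternative values for single members, 731 kept their direction and their side of the threshold, 7 lost the call in 58 kb KO between the days, and 21 changed sign, none of them called. Median centring turned Tfap2a, 58 kb KO against WT at day 2, to -0.0092. Leaving out KO-i at both days turned Tfap2a (0.040) and Ascl2 (0.092) between the days in 58 kb KO, Krt18 (-0.0032), Krt19 (-0.17) and Tfap2a (-0.029) between the genotypes at day 2, and Gata2 (0.063) at day 4. With 1 library left out at a time, the sign also changed between the days for Gata2 in WT (-0.23 to 0.16) and Ascl2 in 58 kb KO (-0.62 to 0.11). Between the genotypes it did so at day 2 for Krt18 (-0.0032 to 0.49), Krt19 (-0.17 to 1.09), Tfap2a (-0.029 to 0.096), Tfap2c (-0.28 to 0.55) and Ascl2 (-0.59 to 0.12), and at day 4 for Gata2 (-0.41 to 0.063) and Ascl2 (-0.18 to 0.56). The difference of the day changes of Tfap2c ran from -0.076 to 0.75. The causes were not tested.

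Counts of all genes called moved more. Between the days they were 1474 to 4282 in WT and 990 to 2156 in 58 kb KO with 1 library left out. In 58 kb KO they were 1596 with no filter, 396 with only the 2 groups (2 members called, not 6, on fewer samples) and 875 without KO-i. Between the genotypes at day 2, 4 genes became 7 with no filter, 0 with only the 2 groups, 1 without KO-i and 0 to 5 with 1 library left out. At day 4, 0 became 1 with a pseudocount of 0.1, with no filter or without KO-i, 7 with a pseudocount of 5, and 0 to 7 with 1 library left out, of which 7 without KO-j and 1 without WT-1 at day 4. For the difference of the day changes, 0 became 5 with no filter, 1 without the trend and 0 to 1 with 1 library left out. The number of members called was the same in all of these between the genotypes.

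Libraries of the same name share only that name per the labels. Their deviations correlated by 0.0849 in WT and 0.26 in 58 kb KO, and with the name as a replicate block 4783 and 3705 genes and again 6 members each were called between the days. Values near 1 FPKM (Gata2, Tfap2a, Ascl2) rest on few fragments at depths of 9.016 to 16.38 M reads.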
